A study of Saccharomyces cerevisiae with 20 samples.

Results

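The genes described are 10 regulators of *FLO11* and of filamentous growth in *Saccharomyces cerevisiae*, chosen by name: *TEC1* (YBR083W), *STE12* (YHR084W), *DIG1* (YPL049C), *DIG2* (YDR480W), *FLO8* (YER109C), *MSS11* (YMR164C), *MGA1* (YGR249W), *PHD1* (YKL043W), *MIT1* (YEL007W), and *ROF1* (YHR177W). They are 10 of 12131 counted features, and all 10 passed the filter on low counts that left 5772 ORFs for testing. Not every one is an activator. *DIG1* and *DIG2* encode inhibitors of Ste12, and *ROF1* entered the study as a plasmid gene that reduced colony structure, so the group is called regulators here.

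*FLO11* encodes a cell surface flocculin that holds yeast cells together in filaments, mats, and structured colonies. Its long promoter is read by several pathways: a MAPK cascade that ends at Ste12 and Tec1 and is held back by Dig1 and Dig2, and a protein kinase A pathway that acts through Flo8, which works with Mss11. Mga1 and Phd1 are further transcription factors that promote filamentous growth, and Mit1 and Rof1 are paralogs of the Wor1 family, named for the regulator of white-opaque switching in *Candida albicans*.

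The 5 strains shared the F45 background (*MAT*a, *ho∆0* replaced by *hphMX6*, *natMX4*-marked *EGFP* at *SPS2*, and an unmapped serine auxotrophy), which forms fluffy colonies. Each carried a low-copy CEN plasmid (p5472) with *SFL1*, *HEK2*, *SAN1*, *ROF1*, or *TOS8* under its own promoter. The study called the increase in copy number modest, and the chromosomal copy is still present. Colonies grew for 4 d at 30° on YPD with 2% glucose and G418, and 3 to 5 colonies were pooled in each of the 4 replicate samples per strain. The study graded the loss of colony structure as very strong for *SFL1* and *HEK2*, intermediate for *SAN1* and *ROF1*, and weak for *TOS8*. The vector control was not analysed here, so each value compares overexpression strains with each other. A gene called higher or lower is so beside the other strains, not beside that control. Against the control, the study reported *TEC1* and *FLO11* as repressed in the *TOS8* strain and in the profile shared by most of the strains. The labels do not say how the replicate samples relate to each other, and the p-values measure the spread between these samples, which may be technical in part.

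The 20 libraries held 6027147 to 35027485 counts, and a single regulator gene held 67 to 7042 counts in a library. Levels are given as normalized CPM, which are read pairs relative to the library total scaled by the TMM method. The gene on each plasmid was highest in its own strain, with mean CPM of 235.4 for *SFL1*, 264.8 for *HEK2*, 98.3 for *SAN1*, 25.6 for *ROF1*, and 292.5 for *TOS8* there. The **a** cell markers *STE2*, *BAR1*, *MFA1*, and *MFA2* together were at 303.7 to 759.1 CPM in every library, and the α cell markers *STE3*, *MF(ALPHA)1*, and *MF(ALPHA)2* at 20.6 to 39.2 CPM, as fits the *MAT*a label. The colonies are mixtures of cell states, and fewer cells expressing a gene cannot be told apart from less RNA per cell.

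The 500 bases before each start codon were searched on both strands for words bound by 3 of these factor families, as the regulators are also known targets of each other. The words were TGAAACA (the pheromone response element, bound by Ste12), CATTCC or CATTCT (the Tec1 consensus sequence), and TTAAAGTT (a word of the Wor1 family). Of 6570 windows of that length, 11.7% held the Ste12 word, 41.5% either Tec1 word, and 4.34% the Wor1-family word. Among the regulators, 6 held the Ste12 word (*TEC1*, *STE12*, *DIG1*, *DIG2*, *PHD1*, and *MIT1*), 4 a Tec1 word (*TEC1*, *FLO8*, *PHD1*, and *ROF1*), and 1 the Wor1-family word (*ROF1*), while *MSS11* and *MGA1* held none. The 6 sites below are shown for *TEC1*, the regulator whose level the report turns on, for *STE12*, whose window held 3 copies of the word bound by its own product, and for *ROF1*. Capitals mark the matched words, the sequences run 5′ to 3′ on the strand of the gene, and all come from the RefSeq R64 genome. That genome is the S288c reference, and the windows were not read in F45, where they may differ.
*TEC1* Tec1 word and Ste12 word, both on the reverse strand (chrII:408763-408792): aattcgGGAATGtgcgTGTTTCAgattgcg
*TEC1* Ste12 word nearest to the start codon (chrII:409064-409092): ataaatgtttaTGAAACAggagattcttc
*STE12* Ste12 word (chrVIII:273689-273717): gttgcataattTGAAACAcagcatttctt
*STE12* Ste12 word (chrVIII:273728-273756): tcgtttcaaaaTGAAACAaacgccgttgt
*STE12* Ste12 word (chrVIII:273770-273798): aatagaaaaagTGAAACAgataaaaattg
*ROF1* Wor1-family word, on the reverse strand (chrVIII:456148-456177): cttgttcccggAACTTTAAtcactctggca
In the first of these the words are 4 bases apart and lie 384 to 400 bases before the *TEC1* start codon. A stretch of 26 bases or less with both kinds of word was found in 55 of the 6570 windows (0.837%). A matched word describes the letters in the window and does not show that the factor binds there.

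Of the 10 regulators, 8 differed among the 5 strains at an adjusted p below 0.01 (edgeR's quasi-likelihood test), where the same test called 58.5% of all ORFs tested. The 2 others were *DIG2* (adjusted p = 0.0101), which lay just past the threshold and was called under 6 of 7 other settings, and *FLO8* (adjusted p = 0.122). The ratio of the highest to the lowest strain mean ran from 1.15 for *FLO8* and 1.20 for *DIG1* to 2.84 for *ROF1*, set by its plasmid, and 4.15 for *MGA1*, with *PHD1* next at 2.17. Over the 10 pairs of strains, 38 of the 100 combinations of a regulator and a pair were called, beside 21.2% of all combinations of an ORF and a pair. Of the 38, 4 were calls of the plasmid gene *ROF1* in pairs that hold its own strain.

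**Figure D1:**
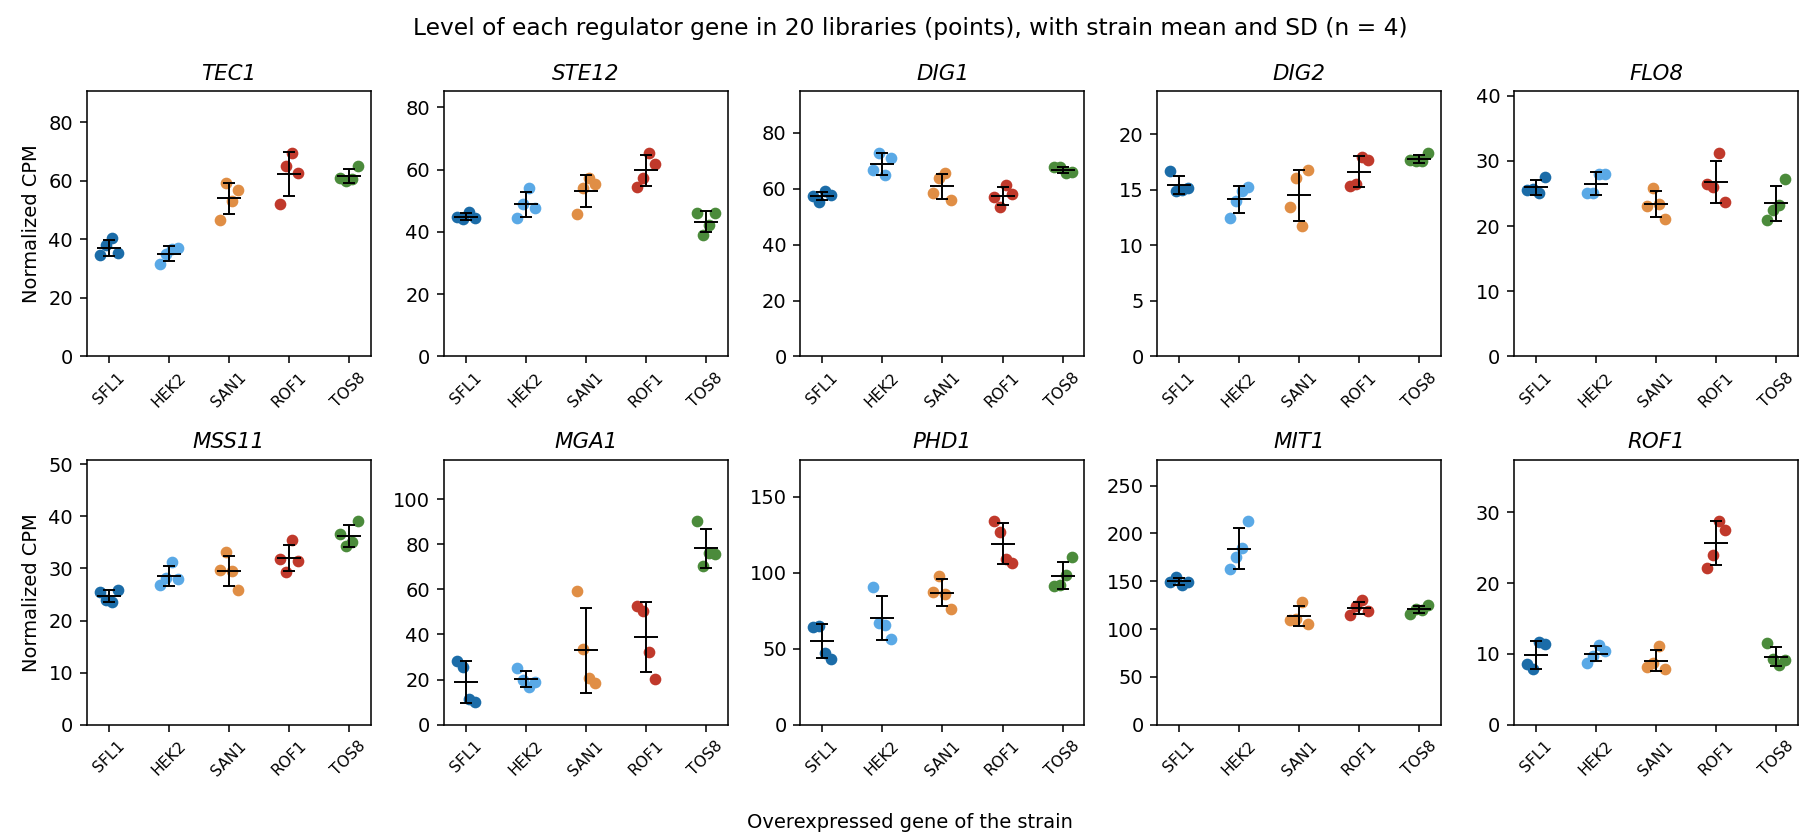
Normalized CPM of the 10 regulator genes (vertical axes, from 0) in the libraries of the 5 overexpression strains (horizontal axes); points are libraries and black bars the strain mean ± SD (n = 4). *TEC1* was lower in all *SFL1* and *HEK2* libraries than in the rest, *MIT1* higher, and *MGA1* highest in the *TOS8* strain.

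*TEC1* encodes the TEA/ATTS DNA-binding factor that directs Ste12 to filamentation genes. It was lowest in the *SFL1* and *HEK2* strains. Its CPM was 34.5, 38.0, 40.4, and 35.4 in the *SFL1* libraries and 31.7, 35.0, 36.7, and 37.1 in the *HEK2* libraries. It was 46.6, 59.2, 53.2, and 56.7 with *SAN1*, 52.1, 65.0, 69.6, and 62.6 with *ROF1*, and 60.9, 59.8, 60.7, and 65.0 with *TOS8*. Every *SFL1* and *HEK2* library was therefore below every library of the other 3 strains. The log2 fold-change of *SFL1* and *HEK2* against *SAN1* and *ROF1* was -0.68 ± 0.06 (SE, adjusted p = 3.7e-08). All 6 pairs that set *SFL1* or *HEK2* against another of the 3 strains were called, with log2 fold-changes from -0.53 (*SFL1* against *SAN1*) to -0.84 (*HEK2* against *ROF1*). The strains fell in the order *ROF1*, *TOS8*, *SAN1*, *SFL1*, and *HEK2*. Only the step from *SAN1* to *SFL1* passed the test among these neighbours (adjusted p = 0.00019).

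*STE12*, the homeodomain factor at the end of the mating and filamentation cascades, followed another order. Its CPM was 54.5, 57.2, 65.5, and 61.8 in the *ROF1* libraries, and 46.1, 39.0, 42.2, and 46.0 in the *TOS8* libraries. The *SFL1* libraries held 44.0 to 46.4, the *HEK2* libraries 44.6 to 54.2, and the *SAN1* libraries 45.8 to 57.4. The *ROF1* libraries were above all those of *SFL1*, *HEK2*, and *TOS8*, the closest being 1 *HEK2* library at 54.2, and overlapped those of *SAN1*. Its log2 fold-change was 0.34 ± 0.06 in the *ROF1* strain against the other 4 (adjusted p = 0.00061) and -0.25 ± 0.06 in the *TOS8* strain (adjusted p = 0.0015). Without *TOS8* replicate 2 the latter was -0.20 and missed the threshold (adjusted p = 0.016). No pair of neighbours in the order *ROF1*, *SAN1*, *HEK2*, *SFL1*, *TOS8* differed (adjusted p from 0.21 to 0.51). In the *TOS8* strain *TEC1* was thus high beside *SFL1* and *HEK2*, and *STE12* low beside *ROF1* and *SAN1*. *TEC1* was not called there against *ROF1* (adjusted p = 0.87) or *SAN1* (adjusted p = 0.06). Nor was *STE12* called against *SFL1* (adjusted p = 0.51) or *HEK2* (adjusted p = 0.062). The *STE12* call against *SAN1* (adjusted p = 0.0044) was lost in 5 of the 20 fits that left out a library.

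*DIG1* and *DIG2* encode paralogous inhibitors that bind Ste12. Their levels moved little. *DIG1* CPM was 66.6, 72.9, 64.7, and 71.0 in the *HEK2* libraries and 57.4, 55.4, 59.0, and 57.6 in the *SFL1* libraries. The first group lay entirely above the second. The *TOS8* libraries (65.5 to 67.6) lay among those of *HEK2*, and the *SAN1* (56.0 to 65.4) and *ROF1* (53.3 to 61.2) libraries reached lower. *DIG1* rose by a log2 fold-change of 0.19 ± 0.04 in the *HEK2* strain against the other 4 (adjusted p = 0.0018), a call that was lost without *HEK2* replicate 2 (adjusted p = 0.016). *DIG1* also differed between *SFL1* and *HEK2* (-0.27 ± 0.06, adjusted p = 0.0039), both graded as very strong. That call was lost in 5 of the 20 fits that left out a library: without *SFL1* replicates 1, 2, or 4, or *HEK2* replicates 2 or 4. *DIG2* was at 17.6 to 18.3 CPM in the *TOS8* libraries and at 11.8 to 18.0 in the other 16. Its log2 fold-change there, 0.24 ± 0.07 (adjusted p = 0.0047), missed the threshold when any single *TOS8* library was left out (adjusted p from 0.01 to 0.022).

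The ratio of an activator to an inhibitor in the same library does not depend on scaling between libraries. Per kilobase of coding sequence, *TEC1* had 0.476 ± 0.040 (SD, n = 4) times the level of *DIG1* in the *HEK2* strain and 0.601 ± 0.042 in the *SFL1* strain. The ratio was 0.826 ± 0.094 in the *SAN1* strain, 0.860 ± 0.041 in the *TOS8* strain, and 1.01 ± 0.12 in the *ROF1* strain. No *SFL1* or *HEK2* library (at most 0.639) reached the lowest value of the other strains (0.744). The ratio of *STE12* to *DIG1* spanned less, from 0.428 ± 0.036 in the *TOS8* strain to 0.684 ± 0.037 in the *ROF1* strain, and that of *TEC1* to *STE12* was highest in the *TOS8* strain (2.02 ± 0.12) and lowest in the *HEK2* strain (1.02 ± 0.06). These ratios are of RNA and are given as a description.

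*FLO8*, which encodes the activator of *FLO11* downstream of protein kinase A, was the flattest. Its CPM ranged from 20.96 to 31.3 over the 20 libraries, and none of the 10 pairs was called, the smallest adjusted p being 0.084. Its partner *MSS11* differed. The CPM of *MSS11* was 25.5, 23.8, 23.5, and 25.9 in the *SFL1* libraries and 36.6, 34.3, 35.0, and 39.1 in the *TOS8* libraries. The *HEK2* (26.8 to 31.2), *SAN1* (25.9 to 33.1), and *ROF1* (29.4 to 35.5) libraries overlapped each other. *SAN1* reached down to the *SFL1* libraries and *ROF1* up to those of *TOS8*, while *SFL1* and *TOS8* were far apart. *MSS11* was lower in the *SFL1* strain than in the other 4 (-0.35 ± 0.06, adjusted p = 0.00017) and higher in the *TOS8* strain (0.35 ± 0.05, adjusted p = 1.9e-05). No step between neighbours passed the test (adjusted p from 0.044 to 0.51). The per-length ratio of *MSS11* to *FLO8* was 1.004 ± 0.036 in the *SFL1* strain and 1.64 ± 0.14 in the *TOS8* strain.

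*MGA1*, a gene similar to heat shock factors whose product promotes filamentous growth, had the widest range. Its CPM was 90.4, 70.2, 76.3, and 75.9 in the *TOS8* libraries, above all 16 others. It was 28.1, 25.8, 11.5, and 10.004 with *SFL1*, 25.3, 19.8, 16.6, and 19.0 with *HEK2*, 59.2, 33.4, 20.9, and 18.3 with *SAN1*, and 52.6, 50.6, 32.4, and 20.1 with *ROF1*. These 4 strains overlapped. *MGA1* was raised by a log2 fold-change of 1.53 ± 0.23 in the *TOS8* strain against the other 4 (2.89-fold, adjusted p = 9.3e-06). It was lower in the *SFL1* strain (-1.08 ± 0.28, adjusted p = 0.0069), a call lost without *SFL1* replicate 3 (adjusted p = 0.046) or 4 (0.041), *ROF1* replicate 2 (0.01), or *TOS8* replicate 3 (0.01). The contrast of *SFL1* and *HEK2* with *SAN1* and *ROF1* gave -0.94 ± 0.24 (adjusted p = 0.0042). That call was lost without *SFL1* replicate 3, *SAN1* replicate 1, or *ROF1* replicate 1 or 2 (adjusted p from 0.011 to 0.019).

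Within strains *MGA1* varied more than most genes, with a pooled SD of 0.58 (log2), which is at the 99.6th percentile of the ORFs tested. Replicate 1 was above its strain mean in all 5 strains, and replicates 3 and 4 below it in all 5. Replicate numbers 1 to 4 follow the tags YSEQ164 to YSEQ167 in the sample titles, which libraries of different strains share. What the tags mark is not given in the sources used here. The replicate number took up 68.1% of the variance within strains, against a median of 21.6% over all ORFs. The excess of the *TOS8* library over the mean of the other 4 with its number was 1.23, 1.20, 2.00, and 2.21 (log2) for numbers 1 to 4, a comparison chosen after seeing the data. Within numbers, *SFL1* and *HEK2* were below *SAN1* and *ROF1* by 1.06, 0.86, 0.91, and 0.47 (log2). Both directions were the same at all 4 numbers, and the part of whatever the numbers stand for was not tested. Among the other regulators the number took up 59.1% of this variance for *TEC1*, 40.8% for *PHD1*, and 40.1% for *STE12*. For the rest it took up 5.2% (*MSS11*) to 31.0% (*ROF1*). Replicate 1 of *TEC1* was below its strain mean in all 5 strains. Within numbers, the contrast of *SFL1* and *HEK2* with *SAN1* and *ROF1* gave -0.57, -0.76, -0.66, and -0.72 (log2) for *TEC1*.

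*PHD1* encodes an APSES-family factor that enhances pseudohyphal growth. Its CPM was 64.3, 65.0, 47.2, and 43.4 with *SFL1* and 90.6, 67.3, 65.6, and 56.7 with *HEK2*. It was 87.5, 98.1, 86.3, and 76.0 with *SAN1*, 134.2, 126.7, 109.1, and 106.2 with *ROF1*, and 91.3, 91.8, 98.5, and 110.7 with *TOS8*. The *SFL1* libraries were all below those of *SAN1*, *ROF1*, and *TOS8*, and *ROF1* overlapped only with *TOS8*. *PHD1* was lower in the *SFL1* strain than in the other 4 (-0.75 ± 0.11, adjusted p = 6.3e-05) and higher in the *ROF1* strain (0.66 ± 0.10, adjusted p = 0.00024). The contrast of *SFL1* and *HEK2* with *SAN1* and *ROF1* gave -0.72 ± 0.10 (adjusted p = 1.1e-05), and within replicate numbers it was -0.50, -0.75, -0.80, and -0.86. The step between *SFL1* and *HEK2* was not called (adjusted p = 0.093).

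**Figure D2:**
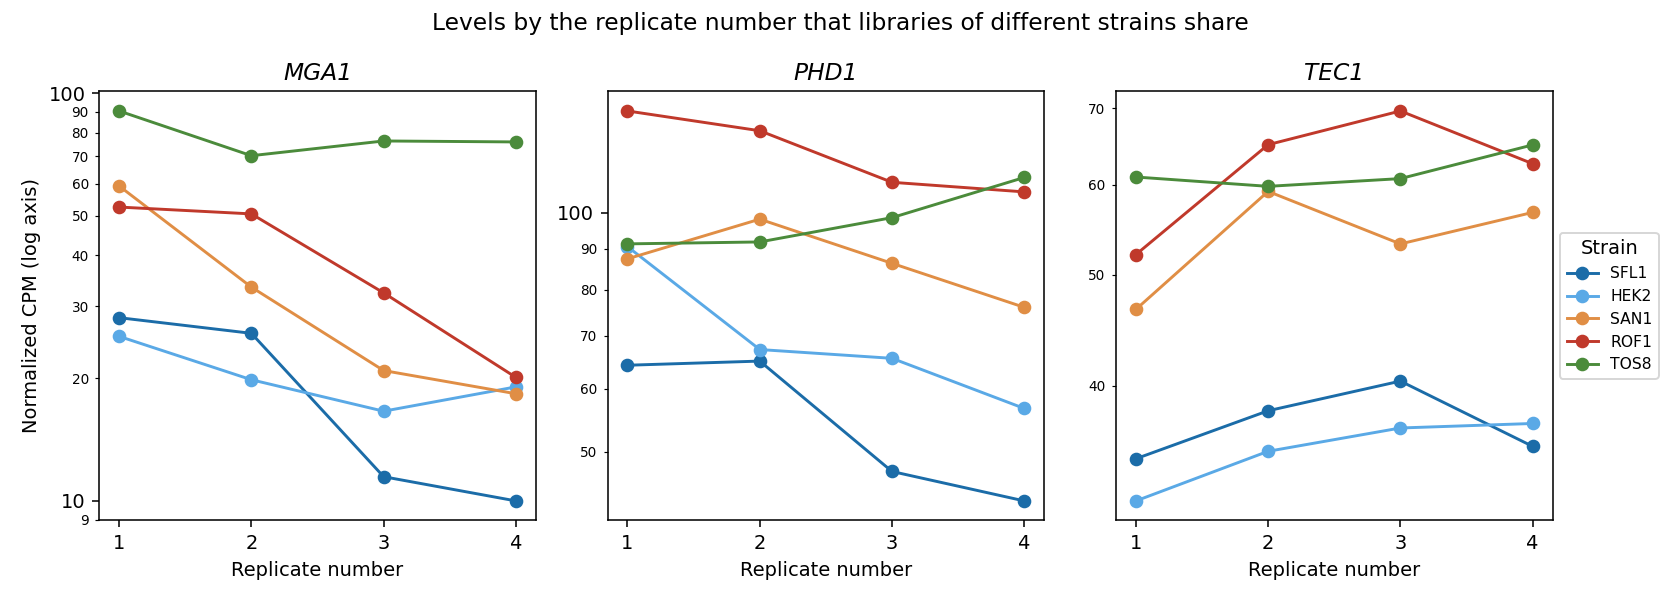
Normalized CPM (log axes) of *MGA1*, *PHD1*, and *TEC1* by replicate number; lines only join the 4 libraries of a strain. *MGA1* was highest in the *TOS8* strain at each number, and *PHD1* lowest in the *SFL1* strain at each number.

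The Wor1-family paralogs took different courses. *MIT1*, whose product activates *FLO11*, was the regulator with the highest mean CPM, although *PHD1* had more per kilobase. It was called higher in *SFL1* and *HEK2* than in *SAN1* and *ROF1*. Its CPM was 149.1, 154.4, 146.3, and 149.3 with *SFL1* and 163.1, 175.3, 185.0, and 213.2 with *HEK2*. It was 109.3, 110.8, 128.7, and 105.5 with *SAN1*, 114.9, 123.8, 130.0, and 118.8 with *ROF1*, and 115.6, 121.4, 119.9, and 125.1 with *TOS8*. All 8 *SFL1* and *HEK2* libraries were above the other 12. The log2 fold-change of *SFL1* and *HEK2* against *SAN1* and *ROF1* was 0.50 ± 0.05 (1.41-fold, adjusted p = 3.3e-07). *MIT1* was also called higher in *HEK2* than in *SFL1* (adjusted p = 0.0096), but this was lost in 16 of 20 fits that left out a library. *MIT1* was the regulator called in the *SAN1* strain against the other 4 (-0.32 ± 0.06, adjusted p = 0.0015), which was lost without *SAN1* replicate 1 or 4 (adjusted p = 0.01 and 0.011).

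*ROF1* was the regulator with the lowest level per kilobase. Its CPM was 22.1, 24.0, 28.8, and 27.6 in the strain with its plasmid and 7.90 to 11.7 in the other 16 libraries, and reads from the plasmid and chromosomal copies cannot be told apart. The log2 fold-change was 1.42 ± 0.09 (2.68-fold, adjusted p = 2.5e-09). None of the 6 pairs among the other 4 strains was called (adjusted p from 0.38 to 0.93). The call of *ROF1* as lower in the *TOS8* strain (-0.39 ± 0.11, adjusted p = 0.0037) and in *SFL1* and *HEK2* (-0.59 ± 0.09, adjusted p = 6.2e-05) comes from contrasts whose other side holds the plasmid strain. Per kilobase, *MIT1* RNA was 12.5 ± 1.1 times *ROF1* RNA in the *HEK2* strain, 10.7 ± 2.3 in the *SFL1* strain, and 8.65 ± 0.59 in the *SAN1* strain. It was 8.68 ± 1.27 times in the *TOS8* strain and 3.26 ± 0.31 in the *ROF1* strain. The genes share no run longer than 14 bases, so 51-base reads separate them.

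Counted by strain, 4 regulators were called in the *SFL1* strain against the other 4 (*TEC1*, *MSS11*, *MGA1*, and *PHD1*, all lower), where 16.2% of ORFs were called. Of all ORFs, 7.93% were higher there and 8.26% lower. With *HEK2* 3 were called (*MIT1* and *DIG1* higher, *TEC1* lower), beside 24.5% of ORFs (14.1% higher, 10.4% lower). With *SAN1* the only one was *MIT1*, beside 3.29% (2.04% higher, 1.25% lower). With *ROF1* 4 were called, all higher, beside 8.85% of ORFs (4.24% higher, 4.61% lower): *TEC1*, *STE12*, *PHD1*, and the plasmid gene *ROF1* itself. With *TOS8* 7 were called, beside 48.3% of ORFs (24.5% higher, 23.7% lower): *TEC1*, *DIG2*, *MSS11*, and *MGA1* higher, and *STE12*, *MIT1*, and *ROF1* lower. The number fell to 4 without *TOS8* replicate 2 or without *TOS8* replicate 3. *DIG2* and *ROF1* were lost in both cases, *STE12* without the former, and *MIT1* without the latter. *MIT1* was also lost without *TOS8* replicate 1, and *ROF1* without *TOS8* replicate 4. In *SFL1* and *HEK2* against *SAN1* and *ROF1* the count was 7, beside 23.6% of ORFs (11.8% higher, 11.7% lower), with *MIT1* higher and *TEC1*, *STE12*, *MSS11*, *MGA1*, *PHD1*, and *ROF1* lower. Leaving out *ROF1*, whose value there is set by its plasmid, 6 of 9 were called.

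By pair of strains, *SFL1* and *HEK2*, both graded as very strong, differed in 2 regulators (*DIG1* and *MIT1*), beside 4.31% of ORFs. That count fell to 0 without *SFL1* replicate 1, 2, or 4, or *HEK2* replicate 2 or 4. *SAN1* and *ROF1*, both graded as intermediate, differed only in the plasmid gene *ROF1*, beside 0.295% of ORFs, and 4 of the 9 other regulators had an unadjusted p under 0.05. Across grades, *SFL1* differed from *SAN1* in 3 regulators (9.1% of ORFs) and from *ROF1* in 6 (15.3%), and *HEK2* differed from *SAN1* in 2 (11.9%) and from *ROF1* in 6 (18.3%). Leaving out the plasmid gene *ROF1*, the counts against the *ROF1* strain were 5 of 9 for *SFL1* and 5 of 9 for *HEK2*. The *TOS8* strain differed from *SFL1* in 6 regulators (43.3% of ORFs), from *HEK2* in 6 (47.7%), from *SAN1* in 3 (30.4%), and from *ROF1* in 3 (31%). Against *SAN1* the count fell to 1 without *SAN1* replicate 3 or 4 or *TOS8* replicate 3 or 4, and without *SAN1* replicate 4 all 3 calls (*STE12*, *MSS11*, and *MGA1*) were lost. Against *ROF1* it fell to 2 without *ROF1* replicate 2 or *TOS8* replicate 2. Leaving out the plasmid gene *ROF1* in the reported fit, *TOS8* differed from the *ROF1* strain in 2 of 9 regulators. *MIT1* was called in 7 of the 10 pairs, 1 of them the unsteady call between *SFL1* and *HEK2*, *TEC1* in 6, and *PHD1* in 5. The 6 calls of *TEC1* held whichever library was left out. Other pair calls did not always hold. *MIT1* between *SFL1* and *ROF1* was lost in 4 such fits, *PHD1* between *HEK2* and *TOS8* in 4, and *STE12* between *HEK2* and *ROF1* in 6.

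**Figure D3:**
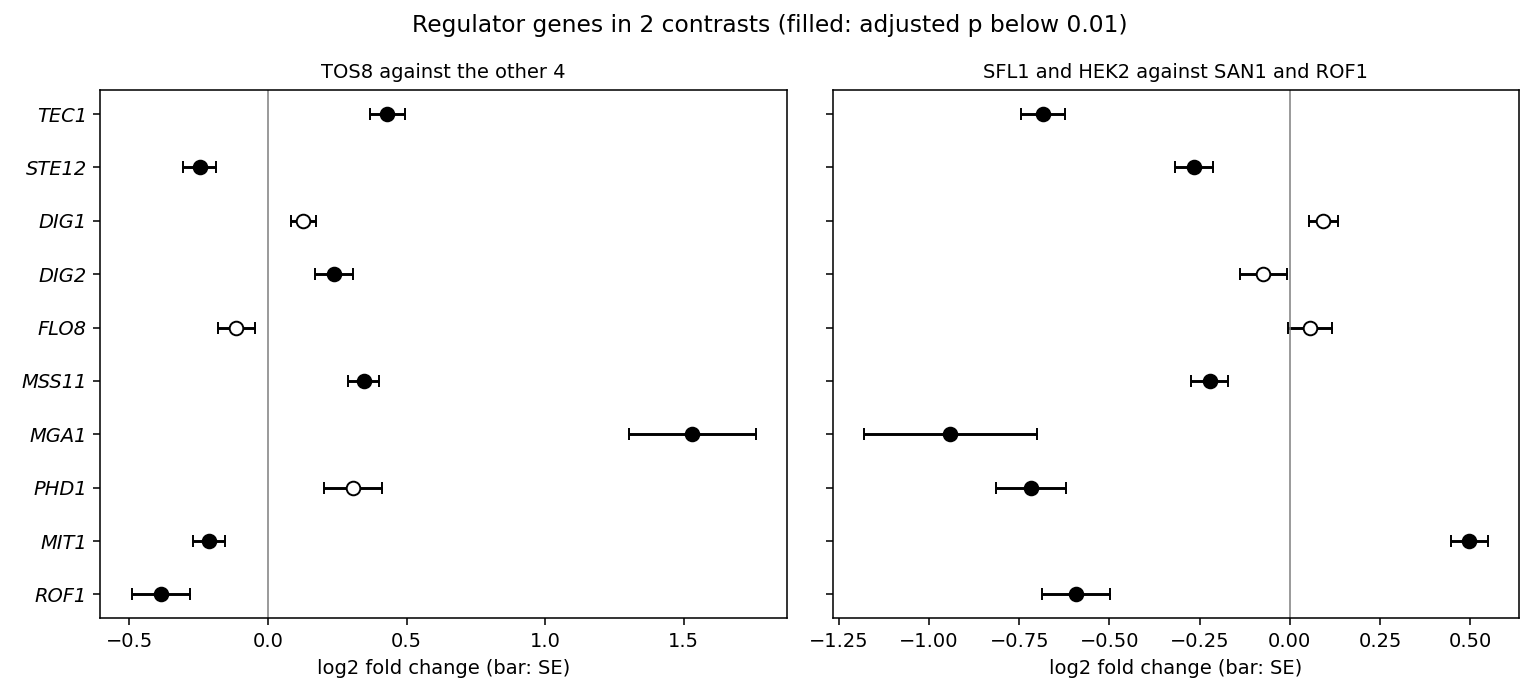
Log2 fold-change (horizontal axes) with its SE of the 10 regulator genes in the *TOS8* strain against the mean of the other 4 (left) and in *SFL1* and *HEK2* against *SAN1* and *ROF1* (right); filled points passed an adjusted p of 0.01. *MGA1* had the largest value on the left (1.53), and *MIT1* stood alone above 0 among the filled points on the right (0.50).

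*FLO11*, the shared target, had strain means in the order *ROF1*, *SAN1*, *TOS8*, *HEK2*, and *SFL1*. Its steps from *TOS8* to *HEK2* (adjusted p = 0.00036) and from *HEK2* to *SFL1* (adjusted p = 8.6e-11) passed the test, and those from *ROF1* to *SAN1* (adjusted p = 0.019) and from *SAN1* to *TOS8* (adjusted p = 0.061) did not. Its mean CPM was 814 ± 93.5 (SD, n = 4) with *SFL1*, 4165 ± 764 with *HEK2*, 7864 ± 1209 with *SAN1*, 11914 ± 1289 with *ROF1*, and 6383 ± 641 with *TOS8*. Sfl1 is itself a repressor of *FLO11*. *TEC1* differed little between the *SFL1* and *HEK2* strains (log2 fold-change 0.09, adjusted p = 0.55), whose *FLO11* libraries did not overlap (733 to 927 against 3499 to 4850 CPM). The part of Sfl1 or of Tec1 in the *FLO11* levels was not tested.

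Of the 4 other filamentation outputs of Tec1 and Ste12 listed, *PGU1* (a pectinase gene) had no count in any library, so 3 could be tested beside *FLO11*. All 4 tested were lower in *SFL1* and *HEK2* than in *SAN1* and *ROF1*, as were 11.7% of all ORFs, with a median log2 fold-change of -1.57. *NFG1*, a negative regulator of the filamentation MAPK pathway, was at 17.5 to 21.7 CPM with *SFL1*, 13.7 to 24.1 with *HEK2*, 74.6 to 98.6 with *SAN1*, 109.5 to 147.3 with *ROF1*, and 59.9 to 102.4 with *TOS8*. Its log2 fold-change was -2.38 (adjusted p = 5.5e-12). *SVS1*, a cell wall protein gene (-0.77, adjusted p = 1.9e-07), and *CLN1*, a G1 cyclin gene (-0.53, adjusted p = 1.8e-05), were also lower. In the *ROF1* strain against the other 4, all 4 were higher, beside 4.24% of ORFs. In the *TOS8* strain 3 of 4 were higher, *CLN1* not being called, beside 24.5% of ORFs.

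Of the 11 genes of the cascade above Ste12 and Tec1, 3 were lower in *SFL1* and *HEK2* than in *SAN1* and *ROF1* and none was higher (median log2 fold-change -0.10), a share near the 23.6% of all ORFs called there. They were *MSB2*, the signalling mucin at its head (-0.61, adjusted p = 1.2e-06), *KSS1*, its MAP kinase (-0.54, adjusted p = 6.8e-07), and *SHO1*, the membrane adaptor (-0.29, adjusted p = 0.00013). In the *TOS8* strain 3 other genes of the cascade were called, all higher: *HKR1*, a further mucin sensor (0.57), *OPY2*, a membrane anchor (0.32), and *STE20*, a kinase (0.22). That share is below the 48.3% of all ORFs called in that strain. Between the *ROF1* and *TOS8* strains the log2 fold-change of *TEC1* was 0.02 ± 0.08 (adjusted p = 0.87). *MSB2* was at 441.4 ± 60.2 CPM in the former and 301.9 ± 30.9 in the latter, and *KSS1* at 47.2 ± 2.5 and 35.0 ± 1.7.

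**Figure D4:**
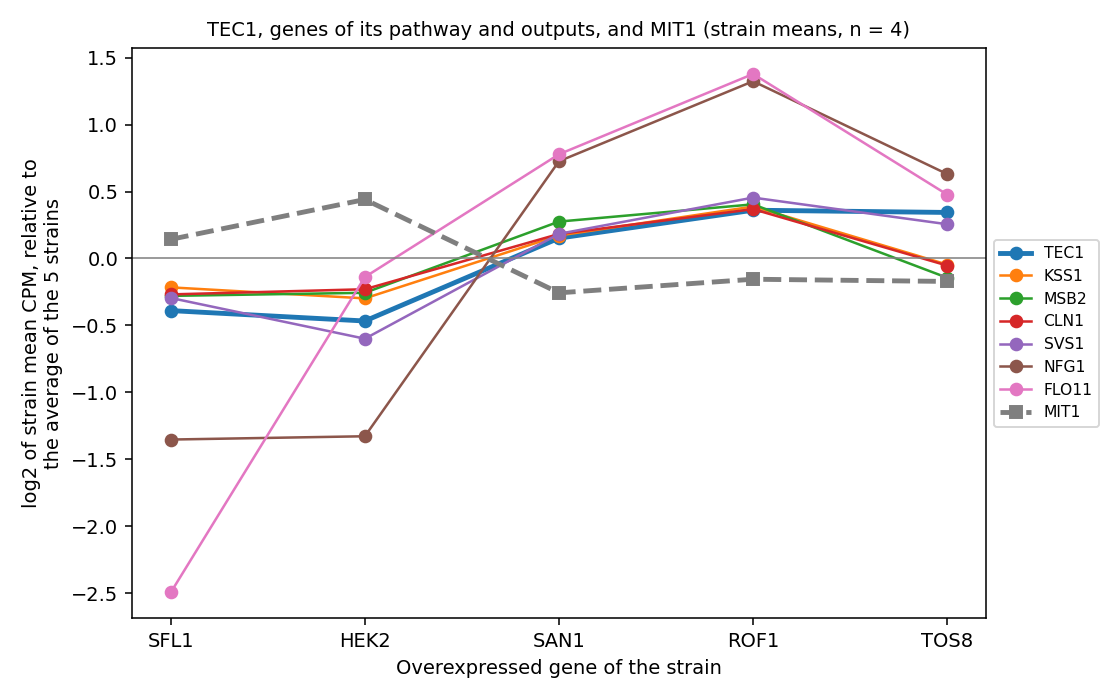
Log2 of strain mean CPM relative to the average of the 5 strains (vertical axis, n = 4 libraries a strain) for *TEC1*, *KSS1* and *MSB2* of its cascade, 4 outputs, and *MIT1* (dashed). The lines of *TEC1*, *KSS1*, *MSB2*, *CLN1*, *SVS1*, and *NFG1* are lowest with *SFL1* or *HEK2* and highest with *ROF1*, *MIT1* is highest with *HEK2*, and *FLO11* is far lower with *SFL1* than with *HEK2*.

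Of 15 pheromone response targets of Ste12, 10 were lower in *SFL1* and *HEK2* and 1 higher (median log2 fold-change -0.43), beside 11.7% and 11.8% of all ORFs. *BAR1*, a protease that degrades α factor, was at -1.01 (adjusted p = 2.9e-08), and *AGA2*, an **a** agglutinin subunit, at -0.77 (adjusted p = 3.6e-07). *FIG2*, a cell wall adhesin gene, was the one higher (0.32, adjusted p = 4.1e-05). In the *TOS8* strain 8 were called, a share near the 48.3% of all ORFs, 6 lower (with *STE2*, the α factor receptor, at -0.74 and *BAR1* at -0.68) and 2 higher (*FUS3*, a MAP kinase, 0.81, and *GPA1*, a G protein subunit, 0.49). *STE2* and *BAR1* are also among the **a** cell markers. Markers of both mating types moved with the contrast of *SFL1* and *HEK2* with *SAN1* and *ROF1*. All 4 **a** cell markers and both testable α cell markers of 3 were lower there. The 4 **a** markers summed to 359.1 to 404.5 CPM with *SFL1*, 410.3 to 522.8 with *HEK2*, 566.3 to 709.7 with *SAN1*, 560.8 to 759.1 with *ROF1*, and 303.7 to 375.4 with *TOS8*. The 3 α markers, none of them at 0 in every library of a strain, summed to 20.6 to 23.7, 21.0 to 22.0, 32.1 to 39.2, 29.99 to 36.1, and 26.4 to 29.7 CPM in the same order. Their part in the levels of the pheromone targets and of *STE12* was not tested.

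The counts for other genes that act on *FLO11* stand beside 23.6% of all ORFs called in *SFL1* and *HEK2* against *SAN1* and *ROF1* and 48.3% in the *TOS8* strain, and nothing is read from them about the lists. Of 9 other activators, 3 were called in *SFL1* and *HEK2* against *SAN1* and *ROF1* (median -0.01): *HMS2*, a heat shock factor-like gene (0.35, adjusted p = 0.0083), and *SNF1*, the glucose-repression kinase (0.22, adjusted p = 0.00031), were higher, and *OPI1*, a regulator of phospholipid synthesis (-0.40, adjusted p = 6.1e-05), was lower. *OPI1* was higher with *TOS8* (0.64, adjusted p = 1.1e-07), as were *MSN1* (0.22) and *RIM101* (0.16), both transcription factor genes. Of 8 repressors, 3 were higher in that contrast: *SFL1*, set by its plasmid, and the corepressor genes *TUP1* (0.34, adjusted p = 0.00024) and *CYC8* (0.21, adjusted p = 0.0014). Both corepressor genes were lower with *TOS8*, at -0.29 (adjusted p = 0.0012) and -0.16 (adjusted p = 0.0089), and *NRG1*, a glucose-dependent repressor, was higher (0.31, adjusted p = 0.0064). Of 11 genes of the cAMP and protein kinase A pathway, 1 was called in the former contrast (*CYR1*, adenylate cyclase, 0.24, adjusted p = 0.00016) and 5 in the *TOS8* strain, where *GPA2*, a Gα subunit, had the largest value (0.59, adjusted p = 5e-10), *TPK2*, a kinase subunit, was also higher (0.24), and *IRA1*, a Ras inhibitor (-0.47), *CYR1* (-0.33), and *RAS2* (-0.17) were lower. Over all ORFs tested the median log2 fold-change was between -0.01 and 0.00 in these contrasts.

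Beside the coding genes, the count table holds 15 features that are not ORFs and overlap a regulator or lie within 500 bases of it. Of these 12 were tested and 4 differed among strains, against 15.9% of the 4007 such features tested. The smallest adjusted p (1.3e-25) was that of 2F-170 (chrII:408247-408769, plus strand), which lies on the strand of *TEC1* and ends 399 bases before it. Its last base is the first base of the Tec1 word printed above for *TEC1* (chrII:408763-408792). Its counts were 50, 30, 76, and 29 in the *SFL1* libraries and 53, 111, 16, and 79 in the *HEK2* libraries, which is 4.68% to 10.8% of the *TEC1* counts of the same library. They were 162, 150, 43, and 109 with *SAN1*, 162, 395, 181, and 94 with *ROF1*, and 88, 352, 256, and 316 with *TOS8*, or 11.9% to 28.2% of *TEC1*. These ranges did not overlap, so the upstream feature was lower relative to *TEC1* as well. In the fit of features that are not ORFs, its log2 fold-change was -2.24 ± 0.12 in *SFL1* and *HEK2* against *SAN1* and *ROF1* (adjusted p = 1.1e-24), where 7.94% of these features were called. It was 1.25 ± 0.11 with *TOS8* against the other 4 (adjusted p = 2e-14), where 10% were called. Whether its reads and those of *TEC1* come from one transcript was not tested.

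A feature antisense to the whole of *ROF1*, 8R-217 (chrVIII:456050-458501, minus strand), was seen almost only in the strain with the *ROF1* plasmid. It had 40, 62, 48, and 36 counts there and 0 to 8 in each of the other 16 libraries, and the log2 fold-change was 4.18 ± 0.23 (adjusted p = 6.6e-23), where 1.9% of these features were called. Its counts were 14.5% ± 3.2 (SD, n = 4) of those of *ROF1* in that strain and 1.43% to 2.53% on average in the others, and the range in that strain (10.7% to 17.7%) lay above all others. The feature 8F-204, which starts 82 bases after *ROF1* on its strand, was higher in the same strain by a log2 fold-change of 0.48 ± 0.10 (adjusted p = 0.0014). How far the plasmid carries these positions is not given in the sources used here, and plasmid and chromosomal reads cannot be told apart. MUT1169.1, which overlaps the end of *MSS11* by 336 bases on the other strand, was lower in the *HEK2* strain (-0.997 ± 0.20, adjusted p = 0.00019; 6.94% called), where *MSS11* was not called (-0.10, adjusted p = 0.15).

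**Figure D5:**
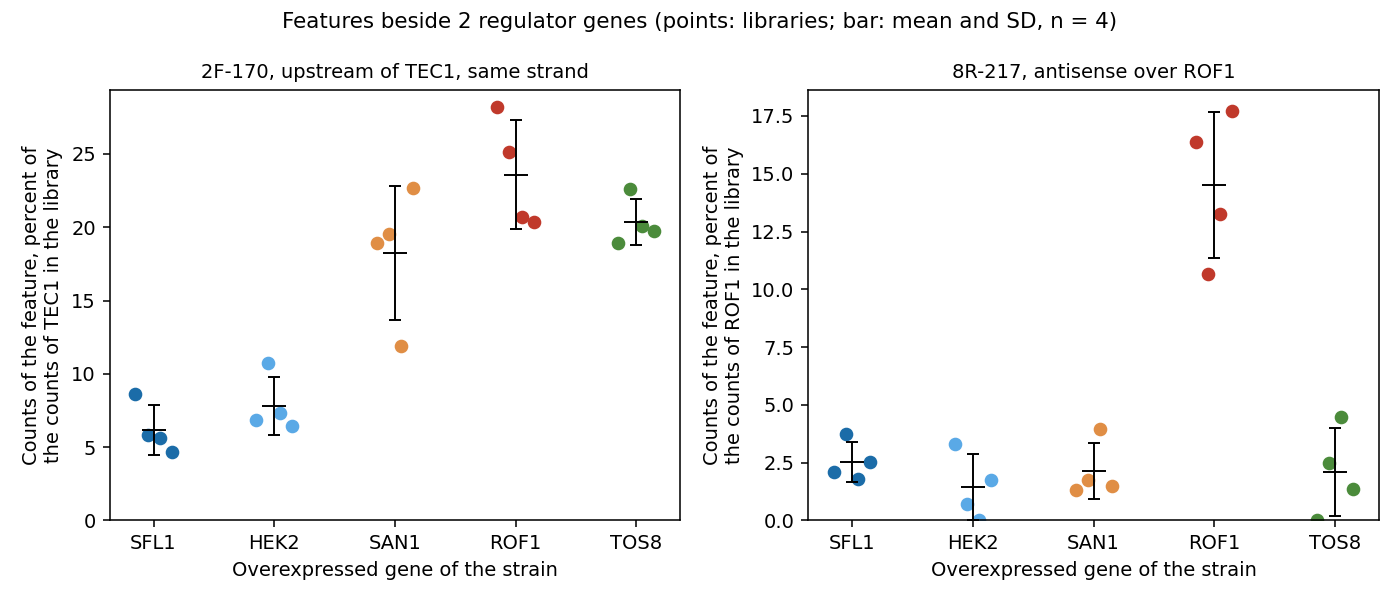
Counts of 2F-170 as a percentage of *TEC1* counts (left) and of 8R-217 as a percentage of *ROF1* counts (right), by strain; points are libraries and bars the mean ± SD (n = 4). The *SFL1* and *HEK2* libraries are at most 10.8% on the left and the rest at least 11.9%; on the right the *ROF1* strain is at 10.7% to 17.7% and the rest at most 4.49%.

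The ORFs most like each regulator were found by Pearson's r of log2 CPM over the 20 libraries, a description in which strain differences and shared libraries both enter. Closest to *TEC1* were *FLO10*, a flocculin gene (r = 0.953), *NFG1* (0.944), and *SVS1* (0.933). *FLO10* was at 28.6 ± 3.8 CPM with *SFL1* and 35.0 ± 4.2 with *HEK2*, and at 67.6 ± 15.4, 87.2 ± 14.4, and 87.0 ± 13.2 with *SAN1*, *ROF1*, and *TOS8*. Closest to *STE12* were *RAX2*, a bud site selection gene (0.926), *AMN1*, a gene of mitotic exit and daughter cell separation (0.857), and *SPS4* (0.851). Closest to *DIG1* was *STP3* (0.805), and closest to *MSS11* YMR265C (0.895), YJR115W (0.861), and *CWP2*, a cell wall mannoprotein gene (0.845). *MGA1* was most like *TLD1* (0.963), *YCT1*, a cysteine transporter gene (0.956), and *FMP48* (0.951), a gene that varied as widely within strains (35.4 to 211.2 CPM with *SFL1*). *PHD1* was most like *MMO1* (YKL044W, 0.972), which ends 105 bases before it on the same strand and held 11.99% to 17.9% of its counts. *MIT1* was most like *VMA2*, a vacuolar ATPase subunit gene (0.898), *AMD1*, an AMP deaminase gene (0.896), and *TMA108* (0.892). For *ROF1*, r rests on the 4 libraries with the plasmid, and the highest was *SBE22* (0.816). Ranked by Spearman's coefficient, 11 of these 24 closest ORFs were again among the closest 3.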

How the data were processed

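RNA from 20 samples, 4 for each of 5 F45 strains, was sequenced as paired 51 base reads from stranded libraries. Alignment was by the authors, with Bowtie2 2.1.0, and they deposited raw read-pair counts per feature from featureCounts 1.4.0 on R64 coordinates, with noncoding features added. The 6575 ORFs and 5556 other features were analysed separately here in edgeR (version 4.0.16; R 4.3.3, limma 3.58.1). A median of 1 CPM or more was required (5772 ORFs, 4007 others). Libraries were scaled by TMM and fitted with a mean per strain over all 20 libraries. Contrasts were tested by quasi-likelihood with Benjamini-Hochberg adjustment over all features of the table, and called at an adjusted p below 0.01. SEs are log2 fold-change over the root of F. Log2 CPM used a prior count of 2.

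The 10 genes, the gene lists, and the tests were chosen with earlier results of these data known. Named genes are the 10, *FLO11*, the plasmid genes, up to 2 genes a list that rose and 2 that fell most in the *TOS8* contrast or in *SFL1* and *HEK2* against *SAN1* and *ROF1*, the 3 ORFs most like each called regulator, and features within 500 bases. *SHO1*, *STE20*, *RAS2*, *CYC8*, *RIM101*, *CLN1*, and *PGU1* fall outside that rule and were named after their values were seen. All 10 genes have the same coordinates in the RefSeq R64 annotation, and of their 51-base words 1, in *MSS11*, occurs elsewhere. The other named genes, *FLO10* and *FLO11* among them, were not checked in this way. The authors did not filter reads on mapping quality. They treated counts of genes with similar paralogs or long low-complexity regions with caution. Alternatives were DESeq2 1.42.0, edgeR's likelihood ratio test, no filter, scaling by RLE or by TMM computed from all features together, a false discovery rate of 0.05, leaving out each library, and the replicate number as a block. The fit of ORFs was also run on simulated counts with changes put into the *TOS8* strain, and only the *TOS8* contrast was checked. Those counts held no effect of replicate number, and the fit of other features was not checked in this way.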

Additional observations from a re-analysis of the deposited data

Results flagged for a closer look

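Among the 50 sets of 4 libraries examined (10 genes in 5 strains), 2 held a library far from the others by Dixon's criterion, where chance gives about 1 in 20. Both were in *DIG2*, and 2 of 50 is no more than that rate. In the *SFL1* strain, *DIG2* was at 16.7 CPM in replicate 1 and at 14.9 to 15.1 CPM in the other 3. In the *TOS8* strain it was at 18.3 CPM in replicate 4 and at 17.6 to 17.7 CPM in the other 3.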

How the results depend on the processing

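No log2 fold-change of the 10 genes changed sign among called values under any alternative run. The count of regulators called in the *SAN1* strain, 1 in the reported fit, was 2 with the likelihood ratio test, 2 with DESeq2, and 2 at a false discovery rate of 0.05, where *ROF1* joined *MIT1*. At a false discovery rate of 0.05 the count was 7 instead of 4 in the *SFL1* strain and 7 instead of 3 in the *HEK2* strain. Among strains, *DIG2* joined the 8 regulators, making 9, with the likelihood ratio test, DESeq2, RLE, TMM over all features, no filter, and a false discovery rate of 0.05 (adjusted p from 0.00216 to 0.0101). Leaving out each library in turn gave 8 to 9 regulators among strains, 3 to 5 in the *SFL1*, 2 to 4 in the *HEK2*, 0 to 2 in the *SAN1*, 4 in the *ROF1*, and 4 to 8 in the *TOS8* strain, 6 to 7 in *SFL1* and *HEK2* against *SAN1* and *ROF1*, and 34 to 41 combinations of a regulator and a pair. With only the 16 libraries of those 4 strains, *MGA1* missed the threshold (-0.93, adjusted p = 0.01). *MIT1* between *SFL1* and *HEK2* missed it with TMM over all features (adjusted p = 0.012) and with no filter (adjusted p = 0.011). DESeq2 gave no adjusted p for *DIG2* and *ROF1* between *SAN1* and *ROF1*. Other scalings moved the median of all ORFs by at most 0.0134 (log2).

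Fitting replicate number as a block gave counts of 8 among strains, 4, 4, 2, 4, and 8 in the *SFL1*, *HEK2*, *SAN1*, *ROF1*, and *TOS8* strains, 7 in the contrast of *SFL1* and *HEK2* with *SAN1* and *ROF1*, and 41 over the pairs. The calls gained were *MGA1* in the *HEK2* strain and in the pairs of *ROF1* with *SFL1*, *HEK2*, and *TOS8*, *PHD1* in the *TOS8* strain, and *ROF1* in the *SAN1* strain. The labels do not say that a number marks a shared batch, so the reported fit does not pair the samples by number. Deviations from strain means of same-numbered libraries correlated at over 0.1 in 22 of 40 pairs, with a mean r of 0.1141. By pair of strains, the means ran from -0.09 for *SAN1* with *TOS8* to 0.29 for *SFL1* with *ROF1*, where all 4 were over 0.1. Of the 20 libraries, 11 correlated best, among libraries of other strains, with one of their own number. That is more than an even spread over the 4 numbers would give. Libraries of a number thus shared some of their deviations, unevenly over the pairs of strains. What the numbers stand for was not tested.

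Depth limits *ROF1*, *DIG2*, and the features that are not ORFs most: *ROF1* had as few as 67 counts in a library and *DIG2* as few as 80.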
